A study of Mus musculus with 12 samples.

Results

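The effect of a high-fat diet alone on the mouse liver was read from 6 RNA-seq libraries of wild-type C57BL/6J mice, 3 on a high-fat diet (HFD 1 to 3) and 3 on the diet named CD (CD 1 to 3), none given dextran sulfate sodium (DSS). They belong to a design of 12 libraries in 4 groups, whose other 6 libraries (HFD_DSS 1 to 3 and CD_DSS 1 to 3) came from mice on the same diets given 2% DSS, a polysaccharide that injures the colon. The genes compared were the 10239 of 54532 gene IDs that reached at least 1 FPKM (fragments per kilobase of exon, scaled to the depth of the library) in at least 3 of the 6 libraries. The labels give no diet composition, time on the diet, age or sex. They also do not say whether each library is a separate mouse, so a p-value here reflects only how far these samples spread, which could be technical. The title of the series names autophagy, liver and gut and colitis as its subject, and the comparison without DSS shows the livers of the 2 diets apart from colitis.

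The liver makes fatty acids from carbohydrate through acetyl-CoA carboxylase, fatty acid synthase and stearoyl-CoA desaturase, and burns them in mitochondria and peroxisomes. The first pathway is driven by insulin, carbohydrate and the transcription factor SREBP1c, the second by fasting and the fatty acid receptor PPARA. Dietary cholesterol and polyunsaturated fat are known to hold back SREBP processing and with it the genes of sterol and fatty acid synthesis. Acute phase proteins such as serum amyloid A are made by hepatocytes in response to interleukin-6 and interleukin-1.

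Depth was similar in all 6 libraries, at 25.7, 24.4 and 23.9 M fragments in HFD 1 to 3 and 24.4, 24.8 and 27.0 M in CD 1 to 3. Hepatocyte markers dominated, with 44720.5 to 50027 summed FPKM over 12 genes in HFD and 52006 to 54885 in CD. Of 13 exocrine pancreas markers 8 were listed at 0 in all 6 libraries, and of 11 intestinal epithelium markers 6 were (Cdx1, Cdx2, Krt20, Muc2, Reg3b and Reg3g). Ddx3y, a gene of the Y chromosome, had 11.1 to 13.2 FPKM in HFD and 11.8 to 12.6 in CD, and Xist, which is expressed from the inactive X chromosome, was under 0.005 in every library.

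HFD 1 stood apart from both other HFD libraries. Along principal component 1, with 37.1% of the variance, it lay at −26.4, against 1.66 and 1.80 for HFD 2 and 3 and −0.05 to 16.4 for CD. The second component (22.5%) placed HFD 2 and 3 at −13.0 and −12.9, HFD 1 at 1.62 and CD at 2.90 to 15.1. In HFD 1, 128 genes were at least 1 log2 unit away from the mean of both other HFD libraries, 95 of them higher, against 52 to 91 genes for each of the other 5 libraries within its own diet. Its correlation of log2 values with HFD 2 and 3 was 0.979 with each, against 0.9896 between HFD 2 and HFD 3 and 0.983 to 0.989 among CD.

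**Figure D1:**
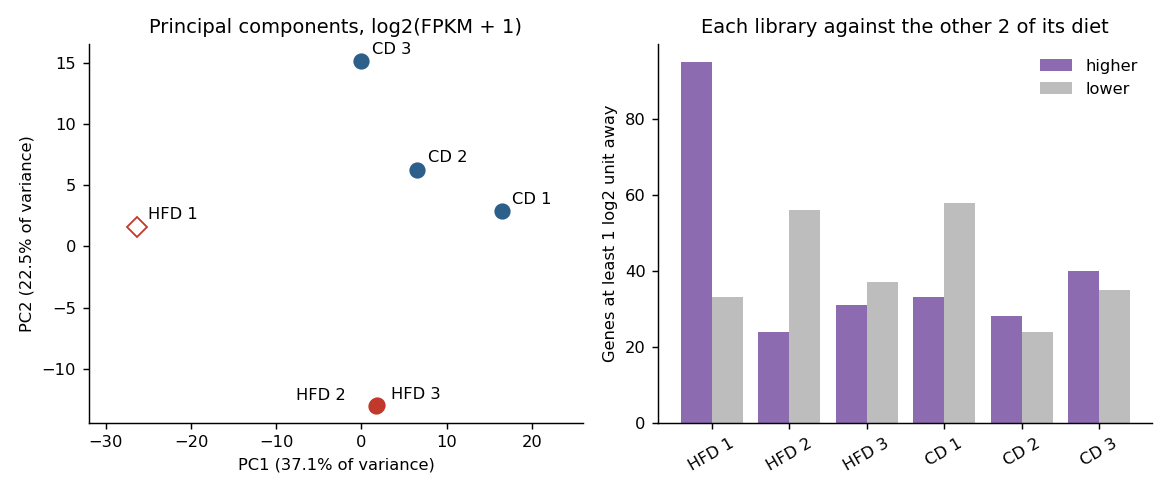
Left, the first 2 principal components of log2(FPKM + 1) over the 10239 genes, 1 point per library (open diamond HFD 1, red HFD 2 and 3, blue CD); HFD 1 lies alone at −26.4 on the first, while HFD 2 and 3 coincide. Right, the number of genes in each library at least 1 log2 unit higher (purple) or lower (grey) than the mean of both other libraries of its diet, with 95 higher and 33 lower in HFD 1.

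Positive acute phase genes made up 15 of the 95 genes higher in HFD 1 and 0 of the 33 lower ones, with the largest of the differences upward. Others were Mup15, a major urinary protein, among the higher genes, and the lipogenic Scd1 and the clock gene Nr1d1 among the lower ones. Mup15 had 6797, 259 and 2698 FPKM in HFD 1 to 3 and 197 to 737 in CD. Nr1d1 had 0.849, 12.5 and 4.42 FPKM in HFD 1 to 3 and 0.783 to 1.87 in CD. At Nr1d1, HFD 1 thus lay inside the CD range, and HFD 2 and 3 lay above it. Saa2, serum amyloid A2, had 267 FPKM in HFD 1, 3.74 and 3.65 in HFD 2 and 3, and 4.70 to 8.37 in CD. Saa1 had 579, 19.9 and 22.4 FPKM in HFD 1 to 3 and 14.98 to 49.2 in CD, so that HFD 2 and 3 lay inside the CD range. Lcn2, the iron-siderophore binder lipocalin 2, and Orm2, an orosomucoid, had 35.8 and 73.4 FPKM in HFD 1 against 0.746 to 1.18 and 3.11 to 3.78 in HFD 2 and 3. Markers of other cells moved with that library: the 12 neutrophil markers summed to 25.9 FPKM in HFD 1, 2.24 and 2.80 in HFD 2 and 3 and 2.20 to 4.44 in CD, with Ly6g at 0 throughout. S100a9 alone gave 14.0 FPKM in HFD 1. Of the 12 neutrophil markers, 8 were under 1 FPKM in all 6 libraries, and 0 passed the filter on low values, so few genes carry that sum. The 8 red cell markers summed to 709 FPKM in HFD 1, 340 and 268 in HFD 2 and 3, and 246 to 377 in CD. The 18 macrophage markers gave 564, 393 and 361 in HFD and 370 to 455 in CD, and the 14 endothelial markers 108, 135 and 139 in HFD and 137 to 146 in CD. In bulk tissue, more cells of a type and more RNA per cell cannot be told apart, and the part of these cells in the results was not tested. The list medians, and fold changes that carry an adjusted p, are also given for HFD 2 and 3 against CD 1 to 3.

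Few genes passed the test. With all 6 libraries, 6 genes (0.0586% of those tested) had a limma adjusted p under 0.05: Gadd45g and Fabp2 rose (0.0195%), and Ugt1a9, Acacb, Lpin2 and Acmsd fell (0.0391%). Without HFD 1, 2 genes passed (0.0195%), Ugt1a9 and Acmsd, and leaving out HFD 2, CD 2 or CD 3 as well ended both calls. Before adjustment, 756 genes (7.38%) had a p under 0.05 with all 6 libraries and 918 (8.97%) without HFD 1. All 3 HFD libraries lay above all 3 CD libraries at 679 genes (6.63%) and below them at 681 (6.65%). With HFD 2 and 3 alone, which is easier to satisfy by number, the shares were 14.1% above (1440 genes) and 11.7% below (1198 genes).

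Gadd45g encodes a small nuclear protein of the growth arrest and DNA damage inducible family and lies at chr13:51846678-51848468 (mm10, forward strand). It had 87.9, 44.4 and 79.1 FPKM in HFD 1 to 3, against 3.58, 6.59 and 6.16 in CD 1 to 3. Every HFD library was far above every CD library, and HFD 2 was the lowest of the HFD libraries. The means were 70.5 ± 23.01 FPKM in HFD and 5.44 ± 1.63 in CD (SD, n = 3 each), a log2 fold change of 3.45 with a standard error of 0.29 (limma adjusted p = 0.0154). Without HFD 1 it was 3.26 (adjusted p = 0.0521).

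Fabp2 encodes the intestinal fatty acid binding protein, which is also made in liver at a lower level than Fabp1 (chr3:122895072-122899506, forward strand). It had 80.9, 77.3 and 80.2 FPKM in HFD, against 42.3, 39.3 and 37.9 in CD, so both groups were tight and did not overlap. The means were 79.5 ± 1.89 FPKM in HFD and 39.8 ± 2.29 in CD (SD, n = 3 each), a 1.97-fold increase of FPKM + 1 (limma adjusted p = 0.0154; 0.0521 without HFD 1). The 11 intestinal markers, Fabp2 included, summed to 99.8, 93.3 and 104 FPKM in HFD and 84.0, 60.5 and 51.4 in CD. Beside Fabp2, Tff3 (12.6 to 39.0 FPKM) and Lgals4 (0.859 to 2.59 FPKM) were detected with overlapping groups, while Vil1 was under 0.1 FPKM and the 6 defining markers named above were at 0. Fabp1, the main liver form, had 4179, 3932 and 3412 FPKM in HFD and 2490, 3080 and 3308 in CD, a difference in the same direction that did not pass (log2 fold change 0.38, adjusted p = 0.596; 0.32 without HFD 1, adjusted p = 0.610).

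Ugt1a9 is one of the alternative genes of the Ugt1a locus (chr1:88070800-88218997, mm10, forward strand), which encodes glucuronosyltransferases that conjugate bilirubin, hormones and drugs. It had 6.71, 5.56 and 6.73 FPKM in HFD, against 27.7, 24.8 and 25.7 in CD, 3.70-fold lower in HFD on the FPKM + 1 scale. The log2 fold change was −1.89 with a standard error of 0.10 (limma adjusted p = 0.00132), and −1.93 without HFD 1 (adjusted p = 0.00943). These genes share their last exons, and 59.9% of the exon bases of Ugt1a9 are also exon bases of Ugt1a2, so the share of fragments assigned to each is uncertain. Its neighbours gave values in the same direction without passing: Ugt1a1 had 26.5, 38.7 and 40.5 FPKM in HFD and 50.9, 49.8 and 39.8 in CD, which overlapped, and Ugt1a5 had 0.867, 2.51 and 2.93 in HFD and 9.63, 5.57 and 4.62 in CD. Ugt1a2 itself was under 0.1 FPKM in every library.

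Acacb (chr5:114146535-114250761, forward strand) encodes acetyl-CoA carboxylase 2, which makes malonyl-CoA at the mitochondrial surface, where it inhibits carnitine palmitoyltransferase 1. It had 5.22, 6.03 and 7.10 FPKM in HFD, against 17.7, 16.2 and 15.4 in CD (means 6.12 ± 0.94 and 16.4 ± 1.15, SD, n = 3 each), 2.46-fold lower in HFD on the same scale (limma adjusted p = 0.0154; 0.0521 without HFD 1). Lpin2 (chr17:71182560-71249817, forward strand) encodes a lipin, a phosphatidate phosphatase of triglyceride synthesis, and had 18.6, 18.3 and 20.5 FPKM in HFD against 36.9, 36.3 and 34.5 in CD, a 1.83-fold decrease (adjusted p = 0.0245; 0.0686 without HFD 1). Acmsd (chr1:127729413-127767978, forward strand) encodes the decarboxylase that diverts a tryptophan intermediate away from NAD synthesis. It had 9.58, 7.71 and 7.14 FPKM in HFD, against 18.02, 19.8 and 20.9 in CD, a 2.26-fold decrease (adjusted p = 0.0250; 0.0317 without HFD 1). In all 3 genes, the HFD and CD libraries were separated by a gap larger than the range of either group.

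With 1 of the 6 libraries left out in turn, Ugt1a9 alone stayed called each time, with a limma adjusted p between 0.00531 and 0.0213. Its adjusted p reached 0.0838 when a further library was left out of the comparison without HFD 1. Gadd45g and Fabp2 stayed called only without HFD 2, Acacb only without HFD 3, Acmsd only without HFD 1 and Lpin2 under none of the 6, with adjusted p up to 0.158. The number of calls was 2, 9 and 2 without HFD 1, 2 and 3 and 1 without any one of CD 1 to 3. None of the 6 genes changed direction under the alternatives run. Over those with HFD 1, the log2 fold change of Gadd45g lay between 3.07 and 3.75, of Acmsd between −1.29 and −1.10 and of Lpin2 between −0.92 and −0.84; over those without it, Gadd45g lay between 2.85 and 3.67, Acmsd between −1.40 and −1.24 and Lpin2 between −0.93 and −0.78.

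**Figure D2:**
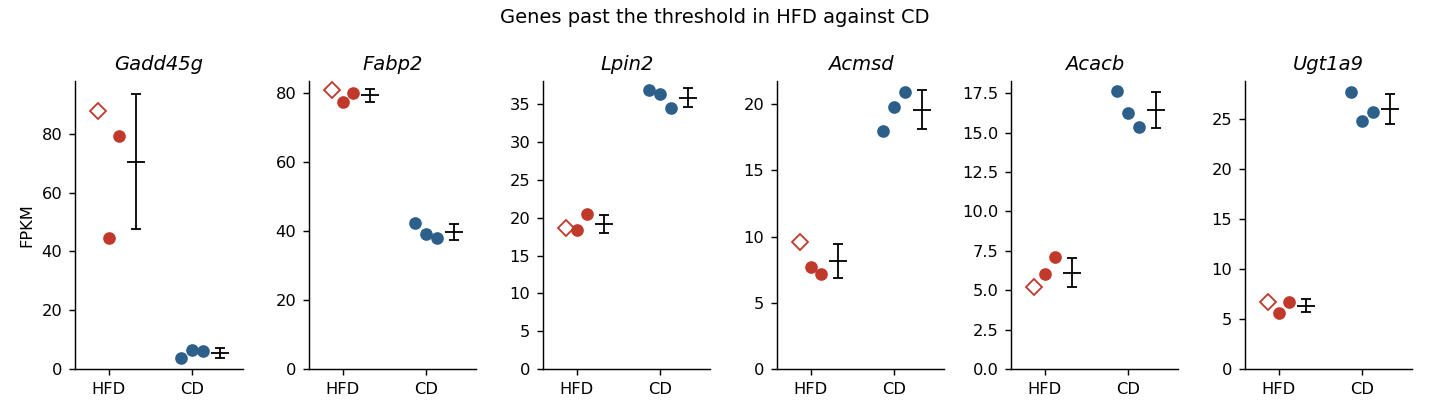
FPKM of the 6 genes called with all libraries, each on its own axis from 0, by library (HFD left, CD right; the open diamond is HFD 1), with the mean and SD of 3 libraries as a black bar. HFD 1 lies with HFD 2 and 3 at all 6 genes, and no HFD library overlaps a CD library.

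The 250 bases before the RefSeq start (GRCm38.p6) of the 2 called genes that rose are shown so that they can be compared. Capitals mark the motifs CCAAT (the NF-Y core), TATAAA (the TATA box), CACGTG (an E-box) and TCACNCCAC (a sterol element), each searched on both strands.
Gadd45g (chr13:51846425-51846674, forward): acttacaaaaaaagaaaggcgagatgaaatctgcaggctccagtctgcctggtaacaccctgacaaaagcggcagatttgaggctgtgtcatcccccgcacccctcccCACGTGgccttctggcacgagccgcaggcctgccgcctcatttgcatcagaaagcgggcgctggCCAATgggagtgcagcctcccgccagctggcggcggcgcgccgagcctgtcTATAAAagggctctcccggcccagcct
Fabp2 (chr3:122894822-122895071, forward): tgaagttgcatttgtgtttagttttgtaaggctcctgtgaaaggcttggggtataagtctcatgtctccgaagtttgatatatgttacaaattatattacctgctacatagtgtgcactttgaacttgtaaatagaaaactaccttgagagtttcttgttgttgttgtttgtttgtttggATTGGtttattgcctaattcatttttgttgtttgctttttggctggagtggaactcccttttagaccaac
The Gadd45g window held TATAAA 27 bases, CCAAT 78 bases and CACGTG 142 bases before the start. The Fabp2 window held CCAAT once on the reverse strand, 70 bases before the start. Of the windows of 7646 tested genes found in the table, 36.9% held CCAAT, 6.50% TATAAA and 8.84% CACGTG.

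Most genes of the list for fatty acid synthesis (lipogenesis) had lower values in HFD, and 1, Acacb, passed the test. Of 19 tested genes of the lipogenesis list, 9 were below CD in all 3 HFD libraries (background 6.65%) and 1, the desaturase Fads2, was above, with a median log2 fold change of −0.65, against 0.01 over all genes tested. Without HFD 1 the median was −0.53, with 9 below CD (background 11.7%) and 3 above (background 14.1%). Acacb was the member that passed, and 11 of the 19 were lower at an unadjusted limma p under 0.05. Voom on recovered fragments called Acacb alone. Acaca, the gene of acetyl-CoA carboxylase 1, had 3.58, 4.39 and 5.23 FPKM in HFD and 7.59, 6.86 and 7.71 in CD. It did not pass (log2 fold change −0.65, limma adjusted p = 0.155; −0.53 without HFD 1, adjusted p = 0.214). Scd1, stearoyl-CoA desaturase 1, had 108, 547 and 686 FPKM in HFD, against 1598, 1369 and 1235 in CD. All HFD libraries were below CD, and HFD 1 was several times below HFD 2 and 3, so the log2 fold change was −2.01 with HFD 1 and −1.18 without it (adjusted p = 0.446 and 0.0901). Fasn, fatty acid synthase, had 16.4, 25.0 and 35.6 FPKM in HFD and 46.1, 43.0 and 68.6 in CD (log2 fold change −1.04, adjusted p = 0.340; −0.77 without HFD 1, adjusted p = 0.405). Acly, which supplies cytosolic acetyl-CoA, had 37.3, 55.1 and 54.2 FPKM in HFD and 89.6, 81.1 and 80.3 in CD, and Elovl6, an elongase, had 8.28, 7.06 and 10.2 in HFD and 17.6, 13.7 and 18.7 in CD. In Scd1, Fasn and Acly the lowest of the 6 libraries was HFD 1, and the groups remained apart without it. Srebf1, the gene of SREBP1, had 24.3, 48.0 and 37.3 FPKM in HFD and 36.1, 33.6 and 32.2 in CD. The groups overlapped through HFD 1, and HFD 2 and 3 lay above all CD libraries (log2 fold change 0.05, adjusted p = 0.987; 0.31 without HFD 1, adjusted p = 0.530).

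In triglyceride metabolism, Lpin2 was the member that passed. Of 23 tested members 4 were above (background 6.63%) and 5 below CD (background 6.65%) in all HFD libraries, with a median of −0.01 (0.05 without HFD 1). Lpin1 had 11.9, 4.33 and 15.6 FPKM in HFD, against 33.4, 35.3 and 35.95 in CD, which did not pass in limma (log2 fold change −1.78, adjusted p = 0.178; −1.93 without HFD 1, adjusted p = 0.255). The CD libraries lay close together and HFD 2 was well below the other HFD libraries. Plin2, the perilipin that coats lipid droplets, had 199, 182 and 182 FPKM in HFD and 131, 111 and 128 in CD (log2 fold change 0.61, adjusted p = 0.131; 0.57 without HFD 1, adjusted p = 0.189). The groups overlapped at Cd36 and Cidec, which are known to be raised in fatty liver. Other genes of lipid metabolism did not overlap, in opposite directions. Pparg was below CD in all HFD libraries (log2 fold change −0.46, limma adjusted p = 0.565; −0.38 without HFD 1, adjusted p = 0.632). Apoa4 was above CD in all HFD libraries (0.47, adjusted p = 0.510; 0.39 without HFD 1, adjusted p = 0.575). Cd36, a fatty acid transporter, had 7.57, 9.54 and 9.49 FPKM in HFD and 9.87, 8.79 and 8.36 in CD. Cidec, a droplet fusion protein, had 1.37, 0.867 and 1.66 in HFD and 0.901, 1.25 and 0.886 in CD. Dgat2, which adds the last acyl chain of triglyceride, differed by −0.05 on the log2 scale with a standard error of 0.10.

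**Figure D3:**
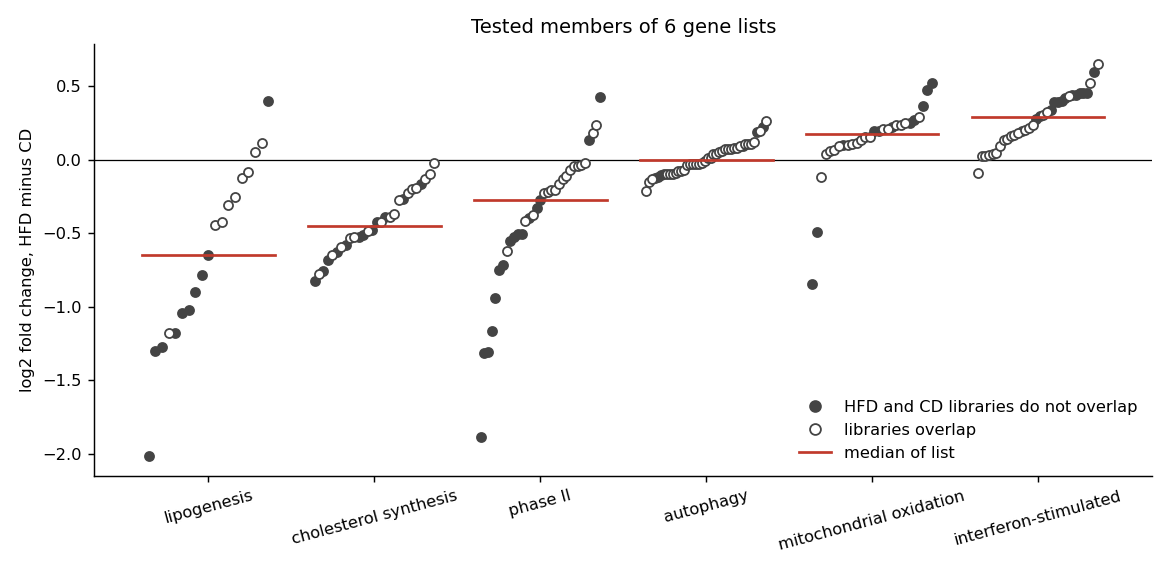
Log2 fold change, HFD minus CD, of every tested member of 6 gene lists, ordered within each list (filled, no overlap between the 3 HFD and 3 CD libraries; open, overlap; red line, median of the list). Every cholesterol synthesis gene lies below 0, autophagy genes lie between −0.21 and 0.26, and 33 of 34 interferon-stimulated genes lie above it.

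Cholesterol synthesis genes had lower values in HFD with and without HFD 1, and none passed the test. The log2 fold change was negative in 28 of 28 tested members, with a median of −0.45 with HFD 1 and −0.45 without it, and 12 of the 28 were below CD in all 3 HFD libraries (background 6.65%), none above. Without HFD 1, 26 of 28 were negative, and 12 were below CD (background 11.7%). No member passed adjustment in limma, 16 had an unadjusted p under 0.05, and voom called 1, Tm7sf2. Tm7sf2, a sterol reductase, had 18.2, 18.4 and 20.8 FPKM in HFD, against 34.0, 29.9 and 30.1 in CD (log2 fold change −0.68, adjusted p = 0.0827; −0.65 without HFD 1, adjusted p = 0.133). Sqle, squalene epoxidase, had 14.5, 8.79 and 17.0 FPKM in HFD and 27.0, 20.6 and 24.2 in CD (log2 fold change −0.83, adjusted p = 0.339; −0.90 without HFD 1, adjusted p = 0.363). Pmvk, phosphomevalonate kinase, had 22.1, 18.4 and 25.97 in HFD and 54.1, 29.4 and 33.7 in CD. In these 3 genes the groups did not touch, and CD 1 was the highest CD library. Hmgcs1 had 68.1, 51.2 and 88.0 in HFD and 148, 75.0 and 77.2 in CD, with an overlap. By library, the median of the list lay lowest in HFD 2 (−0.38 from the mean of the 6 libraries) and highest in CD 1 (0.44), while HFD 3 lay beside CD 2 (0.05).

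Promoter windows of the sterol genes are shown because the members were low together. Windows were found for 20 of the 28 genes, of which 17 held CCAAT and 1, Hmgcs1, held TCACNCCAC, against 36.9% and 1.07% of the windows of all tested genes. Among these 20 were 9 of members below CD in all HFD libraries, of which 7 held CCAAT and 0 TCACNCCAC. Whether the motifs have a part in the lower values was not tested. Lss, lanosterol synthase, and Insig1, an endoplasmic reticulum protein of sterol regulation, stand for members whose groups did not overlap. They were chosen among windows that held CCAAT, so its presence in them was fixed by the choice. Hmgcs1 stands for the sterol element and was chosen because its window held it.
Lss (chr10:76531355-76531604, forward): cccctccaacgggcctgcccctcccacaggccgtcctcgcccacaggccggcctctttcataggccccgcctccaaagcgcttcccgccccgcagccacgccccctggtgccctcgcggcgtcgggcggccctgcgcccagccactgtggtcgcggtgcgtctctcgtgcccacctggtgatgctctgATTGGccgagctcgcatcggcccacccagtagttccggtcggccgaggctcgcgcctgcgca
Insig1 (chr5:28071162-28071411, forward): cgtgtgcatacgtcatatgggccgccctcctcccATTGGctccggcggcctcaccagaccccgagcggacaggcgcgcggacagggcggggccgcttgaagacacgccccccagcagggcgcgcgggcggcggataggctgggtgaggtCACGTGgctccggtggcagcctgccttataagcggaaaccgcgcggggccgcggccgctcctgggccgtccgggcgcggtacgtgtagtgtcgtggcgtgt
Hmgcs1 (chr13:119690101-119690350, forward): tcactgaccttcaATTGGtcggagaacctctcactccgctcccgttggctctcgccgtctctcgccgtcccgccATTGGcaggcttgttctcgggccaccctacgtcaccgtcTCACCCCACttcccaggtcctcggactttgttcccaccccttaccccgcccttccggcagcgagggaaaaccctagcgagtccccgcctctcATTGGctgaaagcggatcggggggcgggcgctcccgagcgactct
ATTGG is CCAAT read on the reverse strand. Hmgcs1 held it 237, 176 and 45 bases before the start, with TCACCCCAC at 137, and Lss held it once, at 62. Insig1, with 93.2, 124 and 126 FPKM in HFD and 144, 142 and 161 in CD, held it at 216 and CACGTG at 101.

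Of 14 tested genes of bile acid synthesis, 8 were below CD in all HFD libraries (background 6.65%) and 1, Amacr, above (median log2 fold change −0.33). Without HFD 1 the median was −0.21, with 8 below (background 11.7%) and 1 above. Cyp7a1, the rate-limiting enzyme of the classic pathway, had 4.92, 6.41 and 13.3 FPKM in HFD, against 35.3, 15.6 and 46.6 in CD. The highest HFD library came near the lowest CD library, and the gene did not pass in limma (log2 fold change −1.84, adjusted p = 0.270; −1.57 without HFD 1, adjusted p = 0.401). Cyp8b1, which sets the share of cholic acid, had 164, 203 and 219 FPKM in HFD and 324, 245 and 312 in CD (log2 fold change −0.58, adjusted p = 0.316; −0.46 without HFD 1, adjusted p = 0.386). Limma called none of the 14, with 8 lower and 1 higher at an unadjusted p under 0.05, and voom called none. A limma fit with a weight for each library called 1, Cyp2c70.

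Drug-metabolising genes mostly had lower values in HFD, and Ugt1a9 was the 1 that passed in limma. Of 33 tested phase II genes, 14 were below CD in all HFD libraries (background 6.65%) and 2 above (background 6.63%). The median log2 fold change was −0.28. Without HFD 1 it was −0.31, with 17 below (background 11.7%) and 4 above (background 14.1%). In this list 15 were lower at an unadjusted limma p under 0.05, and voom called 3: Gstm1, Gstm2 and Ugt1a9. Gstm2, a glutathione transferase, had 12.5, 12.5 and 12.0 FPKM in HFD, against 28.7, 24.4 and 21.2 in CD (log2 fold change −0.94, adjusted p = 0.0619; −0.95 without HFD 1, adjusted p = 0.113), and Gsta2 had 3.41, 5.50 and 5.02 in HFD and 15.003, 11.2 and 8.96 in CD. The glutathione transferases have near-identical family members, so their separate values are uncertain. Of 18 tested targets of the xenobiotic receptors CAR and PXR, 7 were below CD in all HFD libraries (background 6.65%) and none above. The median was −0.35. Without HFD 1 it was −0.25, with 8 below (background 11.7%) and none above. Limma called none, 7 were lower at an unadjusted p under 0.05, and voom called Cyp3a11 and Por. Por, the reductase that feeds electrons to microsomal cytochromes, had 30.6, 31.9 and 28.3 FPKM in HFD and 57.9, 54.8 and 47.6 in CD (log2 fold change −0.79, adjusted p = 0.0619; −0.80 without HFD 1, adjusted p = 0.113). Cyp3a11, a main drug-oxidising cytochrome, had 419, 492 and 415 in HFD and 742, 671 and 737 in CD (log2 fold change −0.70, adjusted p = 0.101; −0.66 without HFD 1, adjusted p = 0.156).

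Fatty acid oxidation genes had slightly higher values in HFD, and none passed the test. Of 28 tested mitochondrial and ketogenic genes, 9 were above CD in all HFD libraries (background 6.63%) and 2, Pdk4 and Ppargc1a, below, with a median log2 fold change of 0.18. Without HFD 1 the median was 0.20 and 18 of 28 were above CD in both remaining HFD libraries (background 14.1%). Limma called none, with 5 higher and 2 lower at an unadjusted p under 0.05, and voom called none. The limma fit with library weights called 3: Bdh1, Cpt1a and Pdk4. Cpt1a, which carries long-chain fatty acids into mitochondria, had 95.3, 112 and 110 FPKM in HFD, against 82.1, 74.7 and 71.0 in CD (log2 fold change 0.47, adjusted p = 0.214; 0.55 without HFD 1, adjusted p = 0.160). HFD 1 was the lowest HFD library at this gene. Pdk4, a kinase that blocks pyruvate oxidation, went the other way, with 1.90, 3.38 and 2.68 FPKM in HFD and 5.81, 5.82 and 4.86 in CD (log2 fold change −0.85, adjusted p = 0.147; −0.69 without HFD 1, adjusted p = 0.168). Of 21 peroxisomal and microsomal genes, 5 were above CD in all HFD libraries (background 6.63%) and none below (median 0.14). Without HFD 1 the median was 0.20, with 8 above (background 14.1%) and none below. Limma and voom called none, with 5 higher at an unadjusted p under 0.05, and the limma fit with library weights called 1, Decr2. Cyp4a10 and Cyp4a14, the cytochromes known as strong PPARA targets, were not among the genes above CD. Cyp4a14 had 7.60, 25.5 and 19.1 FPKM in HFD and 17.7, 19.6 and 24.7 in CD. Vnn1, a pantetheinase, had 25.1, 24.8 and 20.6 in HFD and 6.72, 8.18 and 12.2 in CD (log2 fold change 1.32, adjusted p = 0.0827; 1.27 without HFD 1, adjusted p = 0.189).

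Of 35 urea cycle and amino acid genes 10 were below CD in all HFD libraries (background 6.65%) and 1, Kmo, above (background 6.63%). The median was −0.17. Without HFD 1 it was −0.11, with 12 below (background 11.7%) and 3 above (background 14.1%). Limma and voom called none, with 9 lower and 1 higher at an unadjusted p under 0.05, and the limma fit with library weights called 1, Cth. Cps1, the first enzyme of the urea cycle, had 445, 761 and 721 FPKM in HFD and 973, 976 and 889 in CD. HFD 1 was far below the other HFD libraries here as well. Ldha, lactate dehydrogenase A, had 467, 351 and 345 FPKM in HFD and 245, 224 and 249 in CD (log2 fold change 0.68, adjusted p = 0.159; 0.54 without HFD 1, adjusted p = 0.156). The glucose-producing enzymes G6pc and Pck1 overlapped between the diets with HFD 1, but HFD 2 and 3 lay below all CD libraries at both. G6pc had 349.9, 269 and 242 FPKM in HFD and 355, 334 and 403 in CD (log2 fold change −0.35, adjusted p = 0.678; −0.51 without HFD 1, adjusted p = 0.256), and Pck1 had 857, 799 and 729 in HFD and 808, 1099.5 and 990.1 in CD (log2 fold change −0.27, adjusted p = 0.746; −0.33 without HFD 1, adjusted p = 0.589).

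Interferon-stimulated genes had higher values in HFD, by more with HFD 1, and none passed the test. Of 34 tested, 14 were above CD in all HFD libraries (background 6.63%) and none below, 33 had a positive log2 fold change, and the median was 0.29. Without HFD 1 the median was 0.15, and 15 of the 34 were above CD in HFD 2 and 3 (background 14.1%). Limma called none, 11 were higher at an unadjusted p under 0.05, and voom called none. Ifit1, an RNA-binding antiviral protein, had 7.54, 5.33 and 5.33 FPKM in HFD, against 2.99, 4.33 and 3.68 in CD (log2 fold change 0.59, adjusted p = 0.322; 0.45 without HFD 1, adjusted p = 0.374). Dhx58, an RNA sensor, had 6.64, 5.56 and 5.24 in HFD and 3.81, 3.97 and 4.08 in CD. Irf7, a transcription factor of the interferon response, had 20.02, 12.0 and 11.5 in HFD and 10.6, 9.93 and 10.8 in CD. HFD 1 was the highest library at all 3, and HFD 2 and 3 lay above CD by less.

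The positive acute phase list lay above CD with HFD 1 and below it without, in the median, and none of its members passed. With all 6 libraries the median log2 fold change over 32 tested genes was 0.18, with 27 positive. In all HFD libraries 4 lay above CD and 1 below (backgrounds 6.63% and 6.65%). Without HFD 1 it was −0.08, and 11 of 32 were below CD in HFD 2 and 3 against 4 above (backgrounds 11.7% and 14.1%). The median of HFD 1 minus the mean of HFD 2 and 3 was 0.87 log2 units. Orm2 had 3.78 and 3.11 FPKM in HFD 2 and 3, against 10.3, 11.8 and 8.78 in CD, a log2 fold change of −1.34 without HFD 1 (limma adjusted p = 0.0686) and 0.02 with it. Saa1 (1.13 with and −0.44 without HFD 1), Saa2 (1.27 and −0.68) and Lcn2 (0.78 and −0.64) took opposite signs, none of them called, and Mt1, a metallothionein, was −0.26 with and −1.60 without HFD 1. Cytosolic ribosomal protein genes had a median of −0.02 over 45 genes with HFD 1 and −0.15 without it, with 1 of 45 below CD in all HFD libraries (background 6.65%) and 13 in HFD 2 and 3 (background 11.7%).

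**Figure D4:**
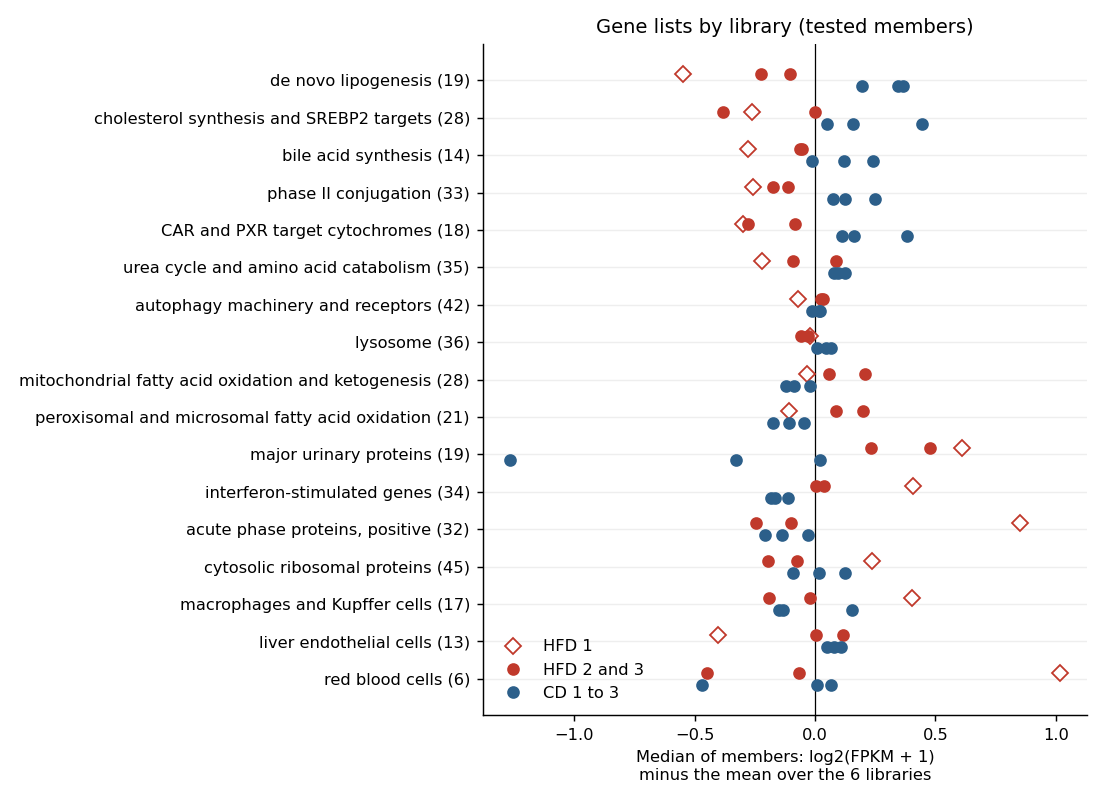
For 17 gene lists, the median over tested members (number in brackets) of log2(FPKM + 1) minus its mean over the 6 libraries, 1 point per library (open diamond HFD 1, red HFD 2 and 3, blue CD). All HFD lie below all CD libraries at lipogenesis, cholesterol synthesis, bile acid synthesis, phase II, CAR and PXR targets and lysosome, some narrowly. They lie above at urinary protein and interferon-stimulated genes, where HFD 1 is the highest library. At acute phase, red cell, macrophage and ribosomal protein genes HFD 1 also lies above the other 5 libraries, but the diets are not separated.

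No gene of the lists known to depend on growth hormone and sex passed in limma without library weights. Of 23 genes known to be higher in female liver, 4 passed the filter on low values. All 4 were below CD in all HFD libraries (background 6.65%), with a median of −1.39 (−1.43 without HFD 1). A member could pass the filter through its CD values alone. Cyp2c40 had 6.11, 2.17 and 3.23 FPKM in HFD, against 38.9, 14.1 and 23.1 in CD (log2 fold change −2.42, adjusted p = 0.121; −2.74 without HFD 1, adjusted p = 0.113). Cyp2c69 had 2.20, 1.17 and 1.48 in HFD and 19.7, 6.82 and 9.07 in CD (log2 fold change −2.19, adjusted p = 0.101; −2.34 without HFD 1, adjusted p = 0.156). Both are cytochromes of 1 family, close in sequence. CD 1 was the highest of the CD libraries at both. Of 22 tested genes known to be higher in male liver, 4 were above CD in all HFD libraries (background 6.63%) and none below (median 0.11). Without HFD 1 the median was 0.17, with 5 above (background 14.1%) and 1 below (background 11.7%). Major urinary proteins, pheromone carriers of male mice, had a median of 0.76 over 19 genes (0.79 without HFD 1). Of these, 7 were above CD in all HFD libraries (background 6.63%). Mup9 had 36.3, 18.5 and 19.9 FPKM in HFD and 3.32, 5.30 and 5.92 in CD (log2 fold change 2.11, adjusted p = 0.0619; 1.82 without HFD 1, adjusted p = 0.0813). Mup13 had 1153, 431 and 506 in HFD and 5.22, 46.7 and 146 in CD, a wide spread in both groups (log2 fold change 4.17, adjusted p = 0.295; 3.73 without HFD 1, adjusted p = 0.420). At an unadjusted limma p under 0.05, 3 female-biased genes were lower, and 4 male-biased genes and 9 urinary protein genes higher. In these lists voom called Mup9 alone, and the limma fit with library weights called Cyp2c40, Cyp2c69 and Mup9. The urinary protein genes are near-identical copies, and the fragments of each are uncertain.

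Autophagy genes, the subject of the title, had a median near 0. Of 42 tested genes of the machinery and its receptors, 21 were higher and 21 lower, and the median log2 fold change was 0.00. In all HFD libraries 3 were above and 4 below CD (backgrounds 6.63% and 6.65%). Without HFD 1 the median was 0.04, with 8 above and 5 below CD (backgrounds 14.1% and 11.7%). With all 6 libraries the members ranged between −0.21 (Gabarapl1) and 0.26 (Atg101). Limma called none, 1 was higher at an unadjusted p under 0.05, and voom called none. Map1lc3b, the LC3 protein of the autophagosome membrane, had 14.6, 14.2 and 14.7 FPKM in HFD and 14.8, 16.3 and 15.7 in CD (log2 fold change −0.10, standard error 0.08). Sqstm1, the cargo receptor p62, had 121, 119 and 126 in HFD and 135, 138 and 118 in CD. Ulk1, the initiating kinase, had 11.2, 11.5 and 12.5 in HFD and 13.5, 14.6 and 10.1 in CD, and Tfeb, the regulator of lysosomal genes, differed by 0.01 with a standard error of 0.10. Atg12, part of the LC3-conjugating complex, did not overlap between the diets, with 13.1, 12.9 and 13.2 FPKM in HFD and 10.6, 11.6 and 11.0 in CD (log2 fold change 0.22, adjusted p = 0.547; 0.22 without HFD 1, adjusted p = 0.495). RNA levels do not measure autophagic flux. Of 36 lysosomal genes 11 were below CD in all HFD libraries (background 6.65%) and none above, with a median of −0.08. Without HFD 1 the median was −0.07, with 15 below (background 11.7%) and 1 above (background 14.1%). Limma and voom called none, with 6 lower at an unadjusted p under 0.05. Ctsa, a lysosomal carboxypeptidase, had 22.8, 21.4 and 21.5 FPKM in HFD and 26.5, 26.9 and 28.8 in CD.

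Of 33 nuclear-encoded genes of oxidative phosphorylation none was above or below CD in all HFD libraries (median 0.02; 0.00 without HFD 1, with 2 below). Of the 13 encoded by mitochondrial DNA 2 were above and none below (median 0.07; 0.11 without HFD 1, with 2 above and 1 below). Of 20 tested NRF2 antioxidant targets 3 were below and none above (median −0.05, −0.08 without HFD 1), and of 14 negative acute phase genes 4 were below and 1 above (median −0.14, −0.13 without HFD 1). The backgrounds for these counts were 6.63% above and 6.65% below, and 14.1% and 11.7% without HFD 1. Limma and voom called none in these 4 lists. At an unadjusted p under 0.05, 1 mitochondrially encoded gene was higher, and 3 NRF2 targets and 2 negative acute phase genes were lower.

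Several single genes just missed the limma threshold with all 6 libraries and did not pass without HFD 1, though voom called Fkbp5 and Inhbe. Upp2, a uridine phosphorylase, had 8.02, 14.1 and 9.76 FPKM in HFD and 28.7, 32.6 and 26.9 in CD (log2 fold change −1.42, adjusted p = 0.0619; −1.25 without HFD 1, adjusted p = 0.0930). Fkbp5, an immunophilin induced by glucocorticoids, had 2.26, 1.59 and 1.63 in HFD and 3.76, 5.17 and 4.22 in CD (log2 fold change −0.93, adjusted p = 0.0827; −1.04 without HFD 1, adjusted p = 0.0901). Inhbe, the hepatokine activin E subunit, had 7.17, 7.60 and 7.06 in HFD and 4.43, 3.37 and 3.87 in CD (log2 fold change 0.76, adjusted p = 0.0637; 0.77 without HFD 1, adjusted p = 0.113). Slc25a25, a mitochondrial ATP-Mg carrier, had 61.7, 42.1 and 44.7 in HFD and 21.0, 18.1 and 25.0 in CD (log2 fold change 1.17, adjusted p = 0.0827; 1.00 without HFD 1, adjusted p = 0.113).

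**Figure D5:**
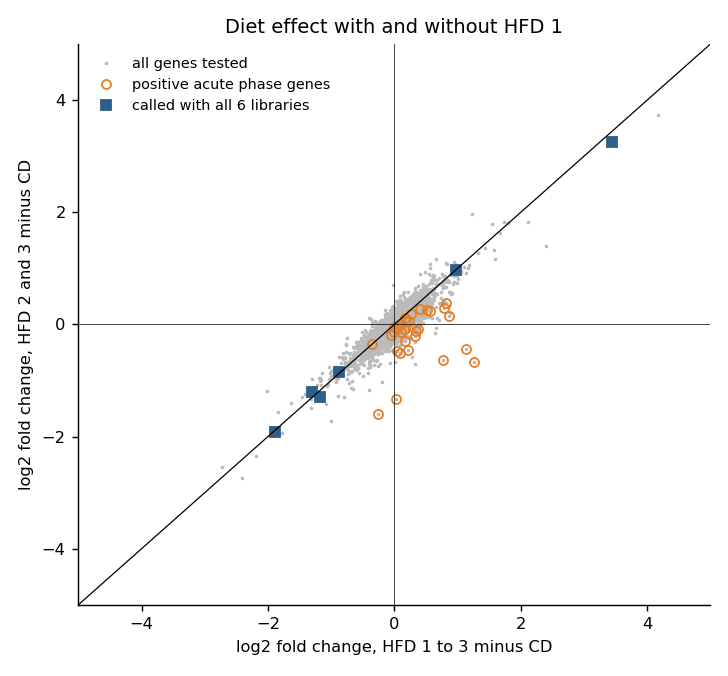
Log2 fold change of each of the 10239 genes with all 3 HFD libraries (x axis) and with HFD 2 and 3 only (y axis), both against CD; the line marks equality. The 6 called genes (blue squares) lie close to it, and most positive acute phase genes (orange circles) lie below it, several on the other side of 0 on the y axis.

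The same diet contrast was measured again in the 6 libraries given DSS, which share no sample with those above. Only its fold changes are separate, because its p-values use the spread of all 12 libraries, those without DSS included. With DSS 12 genes were called (0.117%), Ugt1a9 among them. Ugt1a9 had 4.78, 6.82 and 4.34 FPKM in HFD_DSS and 33.5, 17.2 and 20.3 in CD_DSS (log2 fold change −1.93, limma adjusted p = 0.00678). Of the 6 genes called without DSS, 5 had the same direction with DSS, as had 72.8% of the 756 genes with an unadjusted p under 0.05 and 60.3% of all genes tested. The exception was Lpin2, with 16.5, 34.1 and 27.8 FPKM in HFD_DSS and 50.3, 16.2 and 14.98 in CD_DSS, where CD_DSS 1 lay apart. Gadd45g had 19.5, 7.94 and 57.8 FPKM in HFD_DSS and 5.86, 15.5 and 10.5 in CD_DSS, groups that overlapped. The groups with DSS also overlapped at Fabp2 (log2 fold change 0.401, limma adjusted p = 0.668) and Acacb (−0.694, adjusted p = 0.493). They did not overlap at Acmsd (−0.569, adjusted p = 0.291). Of the 6 genes, only Ugt1a9 was called with DSS, so the count of 5 rests on the sign of the fold change. The medians of the lists were −0.43 for lipogenesis, −0.45 for phase II genes and −0.55 for CAR and PXR targets with DSS, and 0.29 for cholesterol synthesis, opposite in sign to the −0.45 without DSS. They were 0.02 for mitochondrial oxidation, −0.00 for peroxisomal oxidation, 0.02 for bile acid synthesis and 0.13 for interferon-stimulated genes. The log2 fold change of Cyp7a1 was 1.97 with DSS (adjusted p = 0.311), opposite in sign to that without DSS. Differences between these list medians were not tested. CD_DSS 1 lay apart from CD_DSS 2 and 3, with 9.14 FPKM of Saa1 against 595 and 483. It was also high at members of these lists: Scd1 had 1307 FPKM there against 294 and 208, and Gstm2 16.2 against 3.89 and 6.29. Acly differed by less, with 46.2 against 34.1 and 38.3. The part of CD_DSS 1 in the medians with DSS was not tested. Tested gene by gene, the diet effect differed with DSS at 1 gene (0.00977%), the noncoding RNA BC049987, which had 7.51, 7.92 and 6.21 FPKM in HFD and 6.65, 8.13 and 6.94 in CD, but 8.85, 8.44 and 6.48 in HFD_DSS and 1.59, 2.23 and 1.64 in CD_DSS (adjusted p of the difference 0.0208). That count was 0 to 3 with single libraries left out, and limma called none in 8 of those 12 settings, where 378 to 741 genes had an unadjusted p under 0.05.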

How the data were processed

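Liver RNA was sequenced after Qiagen RNeasy extraction and SMARTer mRNA-seq library construction, per the labels' protocols; the submitters' processing notes name mm10. Which aligner and counter made the table is not given in the sources used. The authors deposited FPKM for each gene, in 1 column per library. Multiplied by GENCODE vM21 exon lengths, 97.0 to 97.3% of values under 500 fragments lay within 0.02 of a whole number, which gave the depths. Of 54532 gene IDs, 99.9% matched a symbol. A further 4 unnamed columns held no values.

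Genes were tested as log2(FPKM + 1) with limma 3.58.1 in R 4.3.3 (2 group means, variance trend, two-sided, Benjamini-Hochberg over 10239 genes), so folds are of FPKM + 1 and understate low genes. HFD 2 and 3 were tested against CD over the same genes, and the DSS contrasts in a 12-library fit. The script was tested on simulated data. The replicate numbers were not treated as pairs, and the labels do not say whether they pair the samples.

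Members and 60 gene lists were chosen with earlier results of these data known; lists have no test. Named were, per fit and direction, up to 12 called genes with the largest change and no overlap, filled up by lowest p, called list members (up to 6 a list) and a selection from 71 fixed genes. Other list members given with values were chosen after their values were seen. Some items are not reported here.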

Additional observations from a re-analysis of the deposited data

Results flagged for a closer look

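BC049987, a noncoding RNA, was the 1 gene whose diet effect differed by its own test between mice with and without DSS: the log2 fold change, HFD_DSS minus CD_DSS less HFD minus CD, was 1.66 (limma adjusted p = 0.0208). The number of such genes was 0 in 8 of the 12 settings that leave out 1 library (378 to 741 genes at an unadjusted p under 0.05 in limma) and 1 to 3 in the others. Over the alternatives compared for this count, it moved in 11 and stayed the same in 3. This gene was singled out after its values were seen.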

How the results depend on the processing

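With all 6 libraries, the count of 6 calls was 6 with a pseudocount of 0.1, TPM, median-of-ratios or quantile scaling and 7 with a robust variance prior. It was 3 with no filter (23825 genes, 2 of the 6 genes kept), 16 with a filter at a mean of 5 FPKM, 22 with voom on recovered fragments, 85 with library weights (all 6 genes kept in each of these 3), and 1 with the spread from all 12 libraries. Leaving out each library gave 1 to 9. With library weights, 3 members of the lipogenesis list, 6 phase II genes and 3 CAR and PXR targets were called. Without HFD 1, the count of 2 was 4 with TPM, 5 with the robust prior, 9 with the mean filter, 22 with voom, 43 with library weights, and 0 with no filter (1715 genes at an unadjusted p under 0.05 in limma) or with the 12-library spread (668 genes); leaving out a further library gave 0 to 8. With DSS, the count of 12 was 79 without HFD 1, CD_DSS 1 and HFD_DSS 2, and 1 to 33 with each library left out (1 without HFD_DSS 3, 33 without HFD_DSS 2). The replicate number as a block gave 2 calls with all 6 libraries (1 of the 6 genes kept) and 6 with DSS. It gave 207 without HFD 1, where 1 residual degree of freedom was left. Same-numbered libraries correlated at −0.24, 0.12 and −0.11 in their deviations, too few values to settle whether the numbers pair them. Apart from the constructions named, the cause was not tested. No called gene changed direction under any alternative. No alternative changed the depth, so its part in the number of calls was not tested.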
